A study of Mus musculus with 16 samples.

Results

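Mmp9 and 7 other genes of matrix remodelling (Timp1, Timp2, Ecm1, Sdc4, Adam8, Adam19 and Plaur) were described in mouse CD8 T cells recovered from tumours. They are 8 of the 55573 genes in the count table, and were selected by name with the values of Foxp3UP against MockUP known, so their values in that comparison, and in the difference between the arms, are given as a description with no test. Of the 8 genes, 7 had enough reads to enter the fit, which covered 13711 genes, and Timp1 did not. Foxp3DN against MockDN uses libraries that did not choose the genes, and there the test across all genes is given.

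The cells were OT1 cells of C57BL/6 background, meaning CD8 T cells whose transgenic antigen receptor recognises a peptide of ovalbumin. They had been transferred into mice with tumours, and after 5 days live cells were sorted by CD8 with CD45.1, CD90.1 or both. The 16 RNA-seq libraries form the groups Foxp3UP and MockUP (the UP arm) and Foxp3DN and MockDN (the DN arm), with 4 libraries each. By the labels all groups hold transferred OT1 cells, but which of the surface markers sorted which group is not stated, and the series text names a mixture of Foxp3UP and Mock cells as the treatment. The sources used here do not give what UP and DN abbreviate, how Foxp3 was introduced, which tumour was used or how old the mice were. The labels also do not say whether libraries came from separate animals, so the p-values measure only the spread between these libraries, which may be technical.

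Matrix metalloproteinases such as Mmp9 are secreted as inactive precursors and, once activated, cut collagens, gelatin and other proteins between cells. Tissue inhibitors of metalloproteinases (Timps) bind them and block their active site, while the plasminogen system, in which Plaur holds urokinase at the cell surface, yields plasmin, which can activate them. ADAM proteases sit in the membrane and release the outer parts of other membrane proteins, and activated T cells use these systems when they leave vessels and cross tissue.

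Depth ran from 9389477 to 13226590 counts per library, and levels are given as CPM, counts scaled to a common library size, adjusted by TMM, a factor that aligns the bulk of genes between libraries. The 10 T cell markers, among them Cd3e and Cd8a, were all measured and summed to 9149 to 10575 CPM in Foxp3UP, 7060 to 9632 CPM in MockUP, 8952 to 9766 CPM in Foxp3DN and 8691 to 9207 CPM in MockDN. Of these, Cd2 passed the test in the UP arm (909 CPM in Foxp3UP, 597 CPM in MockUP, edgeR adjusted p = 0.0214). Foxp3, the transcription factor of regulatory T cells, had 15.2, 21.0, 29.5 and 28.7 CPM in Foxp3UP, against 11.5, 13.0, 13.7 and 11.5 CPM in MockUP. It was higher in Foxp3UP by 0.92 ± 0.17 on the log2 scale (SE, edgeR adjusted p = 0.00233). It had 10.3, 10.1, 10.4 and 10.2 CPM in Foxp3DN, against 12.6, 13.4, 11.0 and 14.6 CPM in MockDN, where the groups did not overlap but the log2 difference of -0.33 ± 0.17 did not pass (edgeR adjusted p = 1.00). Higher Foxp3 was thus measured in Foxp3UP and not in Foxp3DN.

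The promoters of the 4 genes whose Foxp3UP and MockUP libraries stood apart and that have an entry in the RefSeq table (GRCm38.p6) are shown, as the 250 bases before the RefSeq transcription start, 5′ to 3′ on the strand of the gene. Of the 8 genes, 7 have an entry, and Mmp9 is the one without. Capitals mark matches on either strand to TGACTCA (AP-1), TGTTTAC (forkhead) and GGGCGG (Sp1). These letters occur in 4.46%, 3.16% and 32.7% of the 32817 windows of the same length in the table, in that order of the motifs. Ecm1 (chr3:95739570-95739819, minus strand) has an AP-1 match that begins 64 bases before the start and an Sp1 match at 42 bases. Sdc4 (chr2:164443189-164443438, minus strand) has Sp1 matches at 166, 154, 72 and 50 bases and neither of the other motifs. Its window lies inside the Sdc4 span used for counting, which reaches 164443887, so it is not upstream of that span. Adam8 (chr7:139992563-139992812, minus strand) has the forkhead letters at 204 bases and an Sp1 match at 35 bases. Plaur (chr7:24462233-24462482, plus strand) has Sp1 matches at 111, 105 and 100 bases, of which the last pair share letters, and an AP-1 match at 69 bases. A match is a stretch of letters and not a measured binding site.
Ecm1: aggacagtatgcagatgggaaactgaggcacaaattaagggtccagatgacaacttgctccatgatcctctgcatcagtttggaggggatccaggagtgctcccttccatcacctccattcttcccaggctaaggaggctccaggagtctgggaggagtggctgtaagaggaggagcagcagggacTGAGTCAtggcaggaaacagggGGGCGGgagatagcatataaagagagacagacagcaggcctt
Sdc4: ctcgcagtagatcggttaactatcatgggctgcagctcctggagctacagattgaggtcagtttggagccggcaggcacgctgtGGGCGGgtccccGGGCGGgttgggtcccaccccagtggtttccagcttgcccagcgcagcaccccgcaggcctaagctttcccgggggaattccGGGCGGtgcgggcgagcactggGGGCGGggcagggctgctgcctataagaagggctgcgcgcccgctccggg
Adam8: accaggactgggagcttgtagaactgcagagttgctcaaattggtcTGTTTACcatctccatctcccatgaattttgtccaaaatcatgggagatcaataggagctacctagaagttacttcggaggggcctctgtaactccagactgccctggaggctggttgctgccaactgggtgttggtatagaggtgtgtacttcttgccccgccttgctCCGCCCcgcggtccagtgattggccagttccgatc
Plaur: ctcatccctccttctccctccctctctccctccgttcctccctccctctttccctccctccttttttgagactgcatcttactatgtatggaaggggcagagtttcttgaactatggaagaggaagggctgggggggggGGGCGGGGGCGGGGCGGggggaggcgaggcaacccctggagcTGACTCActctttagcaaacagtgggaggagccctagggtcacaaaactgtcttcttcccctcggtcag

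Across these genes, the UP arm held a very large difference in Mmp9, differences of several fold in Ecm1 and Sdc4, a smaller one in Adam8 and a lower level of Plaur, while Adam19 and the Timps overlapped between the groups. The libraries of Foxp3UP and MockUP did not overlap in 5 of the 8 genes, of which 4 were higher and 1 was lower in Foxp3UP. Over all tested genes, 15.9% showed such separation, and nothing is read from the members' count because this comparison chose them. In the DN arm the groups overlapped in all 8 genes, and 1.15% of all tested genes were separated there.

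**Figure D1:**
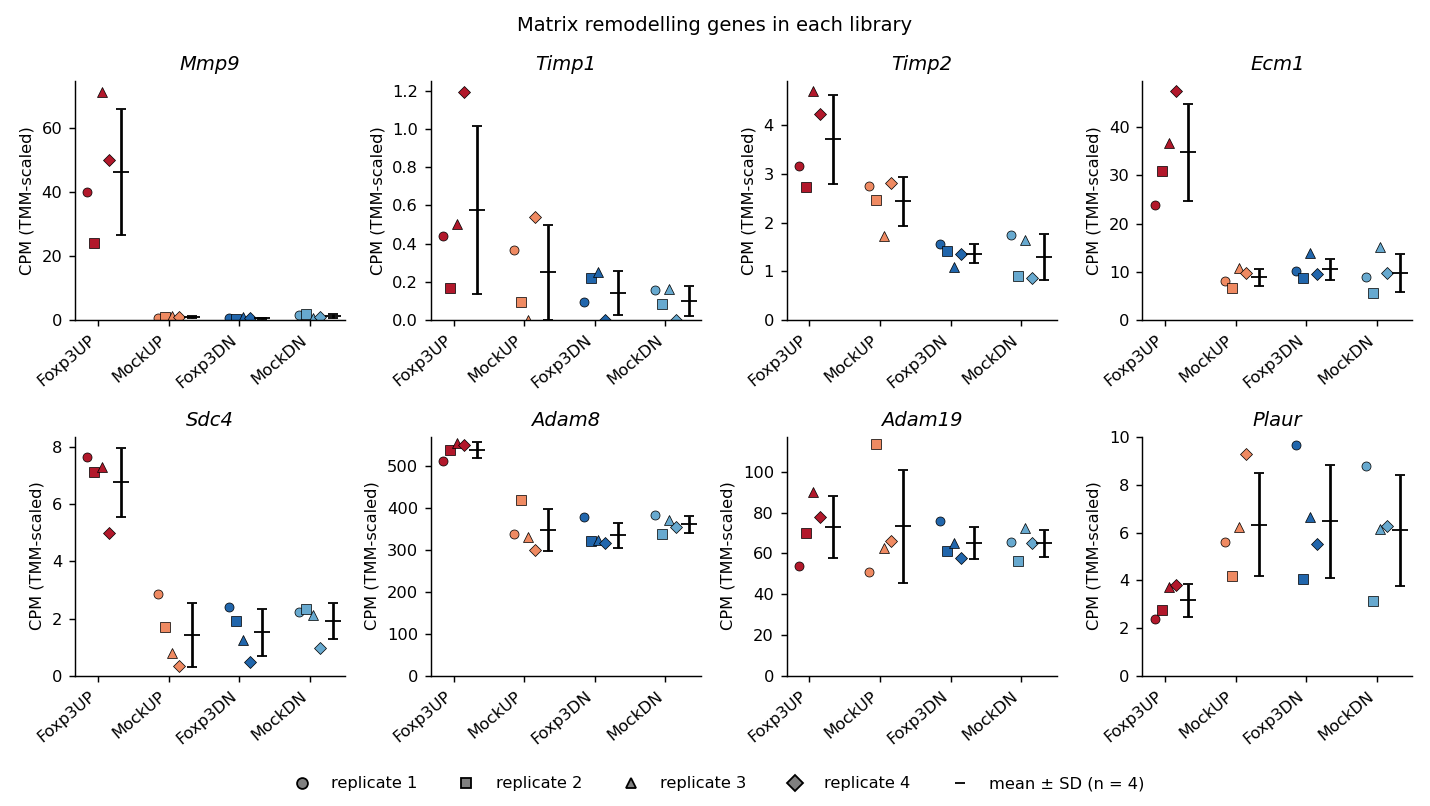
Level of each of the 8 genes in every library, as TMM-scaled CPM on a linear axis that starts at 0, with the replicate number given by the marker shape and the mean ± SD of each group (n = 4) drawn beside the points. Mmp9 reaches 24.2 to 71.2 CPM in Foxp3UP and stays at or below 1.82 CPM in every other library.

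Mmp9 (ENSMUSG00000017737, chr2:164940780-164955850, plus strand, mm10), which encodes gelatinase B, had 40.1, 24.2, 71.2 and 50.2 CPM in Foxp3UP replicates 1 to 4, against 0.737, 0.949, 1.21 and 0.865 CPM in MockUP. Every Foxp3UP library was far above every library of the other groups, the closest values being 24.2 CPM in Foxp3UP and 1.82 CPM in MockDN. The means were 46.4 ± 19.7 CPM in Foxp3UP and 0.941 ± 0.200 CPM in MockUP (SD, n = 4 each), a log2 difference of 5.61 ± 0.36 (SE), or 48.8-fold. The MockUP level rests on 8 to 12 counts per library, against 291 to 710 counts in Foxp3UP. Within Foxp3UP the highest library had 2.94 times the lowest, the widest spread of the tested members in that group. Between libraries of the same number, the log2 differences were 5.46, 4.43, 5.68 and 5.59. Because the RNA came from many cells at once, a high level in some cells and a lower level in all cells cannot be told apart, nor can fewer cells of a type and less RNA per cell.

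In the DN arm, Mmp9 had 0.645, 0.370, 0.840 and 0.581 CPM in Foxp3DN (5 to 10 counts), against 1.51, 1.82, 0.574 and 0.859 CPM in MockDN (7 to 22 counts). The groups overlapped, since MockDN replicate 3 lay below Foxp3DN replicates 1, 3 and 4. The log2 difference of -0.98 ± 0.46 did not pass the test (unadjusted p = 0.0489, edgeR adjusted p = 1.00). Mmp9 entered that test through its counts in Foxp3UP and did not pass the filter on the 8 libraries of the DN arm alone. The log2 difference was -1.72 in replicates 1 and 2 alone and 0.02 in replicates 3 and 4 alone. The effect in the UP arm exceeded that in the DN arm by 6.59 ± 0.59 on the log2 scale, and MockUP differed from MockDN by -0.35 ± 0.44, both given as descriptions. That difference between the Mock groups was -0.98 in replicates 1 and 2 alone and 0.55 in replicates 3 and 4 alone, and from -0.59 (without MockDN replicate 3) to -0.08 (without MockDN replicate 2) with 1 library left out.

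The genes whose level followed Mmp9 most closely across the 16 libraries, by Pearson correlation of log2 CPM, were Il12rb1 (r = 0.963), Itgb7 (r = 0.956), Maf (r = 0.956), Ccr3 (r = 0.953) and F2rl2 (r = 0.953). All libraries of Foxp3UP share the high level, so these values mainly describe the gap between that group and the rest. Ccr3, a receptor for eotaxin chemokines, averaged 41.7 ± 22.6 CPM in Foxp3UP and 0.564 ± 0.308 CPM in MockUP. Maf, a transcription factor of T helper subsets, averaged 13.3 ± 2.73 CPM in Foxp3UP and 2.10 ± 0.414 CPM in MockUP. Itgb7, an integrin chain of gut homing, averaged 592 ± 38.6 CPM in Foxp3UP and 299 ± 15.0 CPM in MockUP. Once each group's mean was removed, the closest genes were others (Wdr44, Wdyhv1, Smarca5-ps, Rnf141 and Trav21-dv12), with r between 0.687 and 0.718. These are the highest values picked from all named genes in the fit, and Mmp9 outside Foxp3UP rests on 5 to 22 counts per library. Whether they exceed what chance gives was not tested.

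Among the inhibitors, neither gene separated the groups. Timp1 (ENSMUSG00000001131, chrX:20870166-20874735, plus strand), which binds Mmp9 and its precursor, had 5, 2, 5 and 11 counts in Foxp3UP, 4, 1, 0 and 5 counts in MockUP, 1, 3, 3 and 0 counts in Foxp3DN and 2, 1, 2 and 0 counts in MockDN. These sum to 23, 10, 7 and 5 counts in that order of the groups, below the filter on low counts, so Timp1 was not tested. Timp2 (ENSMUSG00000017466, chr11:118301069-118355740, minus strand), which also takes part in activating Mmp2, had 3.17, 2.74, 4.71 and 4.23 CPM in Foxp3UP, against 2.76, 2.47, 1.72 and 2.81 CPM in MockUP. The lowest Foxp3UP library lay below the highest MockUP libraries, so the groups overlapped. Its log2 difference of 0.60 ± 0.25 was 0.17 in replicates 1 and 2 alone and 0.97 in replicates 3 and 4 alone. Timp2 had 1.57, 1.41, 1.09 and 1.36 CPM in Foxp3DN, against 1.75, 0.911, 1.64 and 0.859 CPM in MockDN, with a log2 difference of 0.06 ± 0.29. Both groups of the UP arm therefore had higher means than both groups of the DN arm, and MockUP exceeded MockDN by 0.90 ± 0.28 on the log2 scale, as a description.

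Ecm1 (ENSMUSG00000028108, chr3:95734147-95739569, minus strand) encodes a secreted glycoprotein that binds matrix proteins and counts Mmp9 among its known partners. It had 23.8, 30.8, 36.6 and 47.4 CPM in Foxp3UP, against 8.20, 6.74, 10.7 and 9.73 CPM in MockUP. All Foxp3UP libraries were above all others, the nearest being MockDN replicate 3 at 15.1 CPM. The means were 34.7 ± 9.98 CPM in Foxp3UP and 8.84 ± 1.74 CPM in MockUP (SD, n = 4 each), a log2 difference of 1.97 ± 0.26, or 3.92-fold. The DN arm had Ecm1 at 10.1, 8.74, 13.8 and 9.50 CPM in Foxp3DN, against 8.89, 5.55, 15.1 and 9.83 CPM in MockDN. Those groups overlapped along most of their range, with a log2 difference of 0.10 ± 0.26 (edgeR adjusted p = 1.00). The interval of 2 SE on either side ran from -0.43 to 0.62.

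Sdc4 (ENSMUSG00000017009, chr2:164424247-164443887, minus strand) encodes syndecan-4, a heparan sulfate proteoglycan of the cell surface that acts with integrins in adhesion. It had 7.67, 7.15, 7.32 and 4.99 CPM in Foxp3UP, against 2.86, 1.71, 0.807 and 0.324 CPM in MockUP. Foxp3UP lay above all other libraries, while MockUP was itself spread widely, with replicates 3 and 4 well below replicates 1 and 2. The means were 6.78 ± 1.21 CPM in Foxp3UP and 1.42 ± 1.11 CPM in MockUP, a log2 difference of 2.22 ± 0.44, or 4.65-fold. It was 1.69 in replicates 1 and 2 alone and 3.38 in replicates 3 and 4 alone. These values rest on 31, 18, 8 and 3 counts in MockUP replicates 1 to 4, against 87, 86, 73 and 46 counts in Foxp3UP. Sdc4 had 2.39, 1.92, 1.26 and 0.484 CPM in Foxp3DN, against 2.22, 2.32, 2.13 and 0.955 CPM in MockDN. The groups overlapped, and replicate 4 was the lowest library in each of the 4 groups, at 5 counts in Foxp3DN and 10 counts in MockDN. The log2 difference of -0.33 ± 0.46 did not pass (edgeR adjusted p = 1.00).

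**Figure D2:**
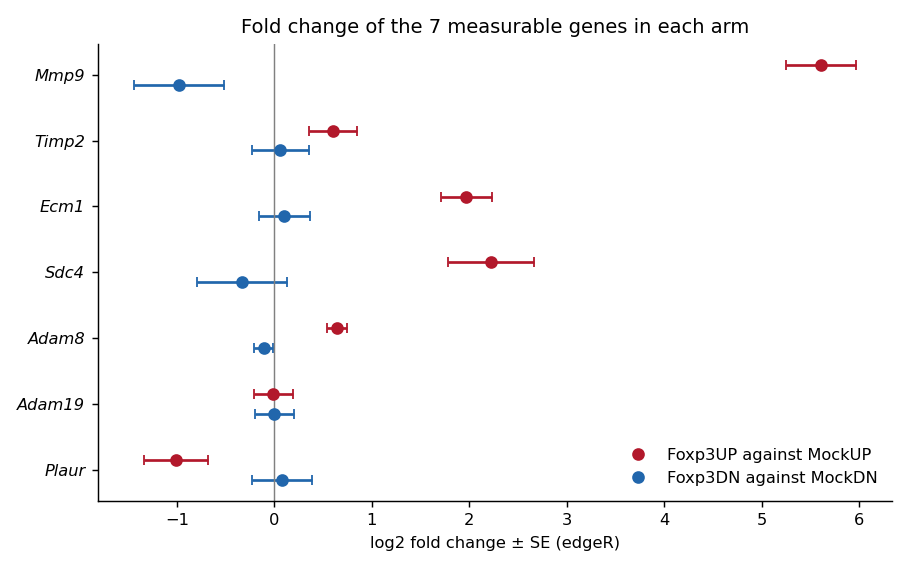
Log2 fold change ± SE from edgeR for the 7 genes that could be fitted, with Foxp3UP against MockUP and Foxp3DN against MockDN in separate colours. In the UP arm Mmp9 is at 5.61, Sdc4 at 2.22, Ecm1 at 1.97, Adam8 at 0.64 and Plaur at -1.01, whereas in the DN arm no gene passed the test.

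Of the ADAM proteases, Adam8 was higher in Foxp3UP and Adam19 was not separated. Adam8 (ENSMUSG00000025473, chr7:139978932-139992562, minus strand), a protease of leukocytes, had 512, 538, 554 and 549 CPM in Foxp3UP, against 338, 418, 329.8 and 300.1 CPM in MockUP. The Foxp3UP libraries were close together and all above the highest MockUP library. The means of 538 ± 19.1 CPM in Foxp3UP and 347 ± 50.5 CPM in MockUP gave a log2 difference of 0.64 ± 0.10, or 1.55-fold. Adam8 had 379, 322, 323 and 316 CPM in Foxp3DN, against 383, 337, 370.3 and 354 CPM in MockDN, and replicate 1 of Foxp3DN lay above 3 of the MockDN libraries. Its log2 difference was -0.11 ± 0.10 (edgeR adjusted p = 1.00), with 2 SE on either side reaching from -0.31 to 0.09.

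Adam19 (ENSMUSG00000011256, chr11:46055992-46147343, plus strand), a metalloprotease also called meltrin beta, had 53.8, 70.0, 90.0 and 77.8 CPM in Foxp3UP, against 51.0, 114, 62.7 and 66.1 CPM in MockUP. MockUP replicate 2 was higher than all Foxp3UP libraries, and the groups overlapped throughout. The log2 difference was -0.01 ± 0.20 with all libraries and 0.28 ± 0.14 without MockUP replicate 2. Adam19 had 75.9, 61.4, 65.3 and 57.6 CPM in Foxp3DN, against 65.5, 56.5, 72.7 and 65.1 CPM in MockDN. Their means were 65.0 ± 7.90 CPM in Foxp3DN and 65.0 ± 6.63 CPM in MockDN, with 2 SE on either side of the log2 difference reaching from -0.40 to 0.40.

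Plaur (ENSMUSG00000046223, chr7:24462484-24475968, plus strand), the urokinase receptor, was the member that was lower. It had 2.38, 2.74, 3.71 and 3.80 CPM in Foxp3UP, against 5.62, 4.18, 6.26 and 9.30 CPM in MockUP. The highest Foxp3UP library was below the lowest MockUP library, but MockDN replicate 2, at 3.15 CPM, lay inside the range of Foxp3UP. The means were 3.16 ± 0.705 CPM in Foxp3UP and 6.34 ± 2.16 CPM in MockUP, a log2 difference of -1.01 ± 0.33. Plaur had 9.67, 4.07, 6.64 and 5.52 CPM in Foxp3DN, against 8.81, 3.15, 6.15 and 6.30 CPM in MockDN. Libraries of the same number were near each other there, and the log2 difference was 0.08 ± 0.31 (edgeR adjusted p = 1.00).

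In Foxp3DN against MockDN, 0 of the 7 fitted members passed the test, by edgeR, by DESeq2 or with the replicate number as a block. By edgeR 1 (Mmp9, at 5 to 22 counts per library) had an unadjusted p under 0.05, and 143 of all 13711 tested genes had such a p. Mmp9 entered the fit only through its counts in Foxp3UP, so nothing is read from its unadjusted p. The background was as sparse, since 0.00729% of all tested genes were called. That is 1 gene, Thy1, named here after its value was seen, which encodes the CD90 antigen used in the sort and was lower in Foxp3DN with a log2 difference of -1.51 (edgeR adjusted p = 0.00317). Thy1 was also higher in MockUP than in MockDN, with a log2 difference of 2.38 (edgeR adjusted p = 4.17e-06). Per kilobase of exonic length, the mean levels in Foxp3UP ran from Adam8 at 116 CPM per kb through Ecm1 at 13.7, Mmp9 at 13.1 and Adam19 at 10.2 CPM per kb to Sdc4 at 2.66, Plaur at 1.21, Timp2 at 0.953 and Timp1 at 0.648 CPM per kb. Neighbours in that order did not all differ beyond their spread: Ecm1, Mmp9 and Adam19 followed each other closely, and Mmp9 varied by 42.4% (SD over mean).

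Over the 16 libraries the correlation of log2 CPM with Mmp9 was 0.915 for Adam8, 0.866 for Ecm1, 0.780 for Sdc4, 0.725 for Timp2, 0.194 for Adam19 and -0.659 for Plaur. After removal of the group means it lay between -0.126 and 0.131 for all 6 genes. These are descriptions over libraries that share groups and replicate numbers. Mmp9 averaged 32.1 CPM in Foxp3UP replicates 1 and 2 and 60.7 CPM in replicates 3 and 4, while Sdc4 averaged 7.41 and 6.15 CPM there.

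The wider matrix pathway was read from 9 lists of 140 genes besides the members, of which 139 were found in the table and 69 could be tested. In Foxp3UP against MockUP, 8 of the 69 rose, 2 fell and 59 did not pass, which is 14.5% called, against 12.1% of all tested genes (6.08% higher and 5.99% lower). The median log2 difference of the 69 was 0.06, against 0.00 over all tested genes. With the replicate number as a block, 17 rose and 4 fell, but that fit also called 3475 of the 13711 tested genes, against 1654 in the main fit. In a fit to the 8 libraries of the arm alone 0 of the pathway genes were called, and 658 of all genes. No other metalloproteinase of the 8 tested passed in this comparison by edgeR or DESeq2, and 1 (Mmp11) had an unadjusted p under 0.05. Over all 13711 tested genes, 3657 had such an unadjusted p. Mmp11 (stromelysin-3) averaged 10.0 ± 0.331 CPM in Foxp3UP and 7.47 ± 1.19 CPM in MockUP (edgeR adjusted p = 0.0833). Mmp14, a membrane-bound activator of Mmp2, averaged 2.04 ± 0.813 CPM in Foxp3UP and 1.40 ± 0.349 CPM in MockUP (edgeR adjusted p = 0.303), and neutrophil collagenase Mmp8 was too low to test.

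The calls lay outside the metalloproteinases. Of 7 tested cysteine cathepsins and cystatins, 4 rose and 3 did not pass. Ctsb (cathepsin B), a lysosomal protease, averaged 484 ± 47.1 CPM in Foxp3UP and 353 ± 51.4 CPM in MockUP (log2 difference 0.46 ± 0.10, edgeR adjusted p = 0.00847). Cst7 (cystatin F), an inhibitor of cathepsins in cytotoxic cells, averaged 232 ± 5.72 CPM in Foxp3UP and 156 ± 43.6 CPM in MockUP (edgeR adjusted p = 0.0245). Ctss rose by 0.47 ± 0.14 and Ctsz by 0.43 ± 0.13 on the log2 scale (edgeR adjusted p = 0.0410 and 0.0465). Ctsb, Ctss and Ctsz encode proteases, while Cst7 encodes an inhibitor of such proteases.

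Of 5 tested plasminogen genes, 2 rose. S100a10 and Anxa2, which together form a surface complex that binds plasminogen, averaged 519 ± 32.7 CPM (S100a10) and 2034 ± 200 CPM (Anxa2) in Foxp3UP, against 281 ± 97.3 CPM (S100a10) and 1523 ± 230.1 CPM (Anxa2) in MockUP. The log2 differences were 0.89 ± 0.20 for S100a10 and 0.42 ± 0.12 for Anxa2 (edgeR adjusted p = 0.00725 and 0.0261). Urokinase itself (Plau) was too low to test, with group means of at most 0.937 CPM.

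Single calls came from 4 other lists. Lgals1 (galectin-1), a secreted lectin, was 1 of 7 tested matrix-binding proteins to rise, with 670 ± 85.4 CPM in Foxp3UP and 402 ± 145 CPM in MockUP (log2 difference 0.74 ± 0.23, edgeR adjusted p = 0.0478). P4ha1, a subunit of the enzyme that hydroxylates prolines of collagen, was 1 of 7 collagen-modifying genes, with 165 ± 7.08 CPM in Foxp3UP and 132 ± 9.59 CPM in MockUP (edgeR adjusted p = 0.0158). Cd44, the main hyaluronan receptor of T cells and a docking site for Mmp9, was 1 of 7 hyaluronan genes and fell to 207 ± 24.3 CPM in Foxp3UP, against 278 ± 38.1 CPM in MockUP (log2 difference -0.43 ± 0.11, edgeR adjusted p = 0.0179). Gpc1, a glypican of the cell surface, was 1 of 16 heparan sulfate genes and fell to 29.8 ± 4.25 CPM in Foxp3UP, against 42.3 ± 11.2 CPM in MockUP (edgeR adjusted p = 0.0412). Of 9 tested ADAM and ADAMTS genes and 3 tested inhibitors and partners, none passed by edgeR or DESeq2 and none had an unadjusted p under 0.05, but the replicate block called 1 gene of each list, Adamts14 (edgeR adjusted p = 0.0336) and Bsg (edgeR adjusted p = 0.0303). When each of the 16 libraries was left out in turn, S100a10 and Ctsb stayed called, with adjusted p of at most 0.0210 (S100a10) and 0.0424 (Ctsb), both without Foxp3UP replicate 1. Foxp3UP replicate 1 also gave the highest adjusted p of Cd44 (0.0568), Cst7 (0.0607), Anxa2 (0.102), Ctsz (0.105) and Lgals1 (0.140) when left out. For P4ha1 the highest was 0.0533 without MockUP replicate 4, for Ctss 0.122 without Foxp3UP replicate 3, and for Gpc1 0.118 without Foxp3UP replicate 4. The call was lost in 2 of the 16 fits for P4ha1 (also without Foxp3UP replicate 3) and for Cd44 (also without Foxp3UP replicate 3), in 3 for Cst7, 5 for Anxa2, 8 for Ctss, 9 for Gpc1, 10 for Ctsz and 13 for Lgals1.

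Spp1 (osteopontin), a secreted matrix protein that Mmp9 can cut, was named after its values were seen. It averaged 353 ± 132 CPM in Foxp3UP and 181 ± 116 CPM in MockUP, with an edgeR adjusted p of 0.221 without and 5.13e-05 with the replicate block. In Foxp3DN against MockDN, 0 of the 69 pathway genes passed by edgeR or DESeq2, 1 (Plod3) had an unadjusted p under 0.05, and the median log2 difference was -0.03. Over all 13711 tested genes, 143 had such an unadjusted p in that arm. The difference of effects between the arms, whose test called 1.83% of all genes, called 0 of the 69. There, 12 had an unadjusted p under 0.05, DESeq2 called 2 (Cd44 and Ctsb) and the replicate block called 13. Of all 13711 tested genes, 2145 had such an unadjusted p, DESeq2 called 666 and the replicate block called 1739.

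**Figure D3:**
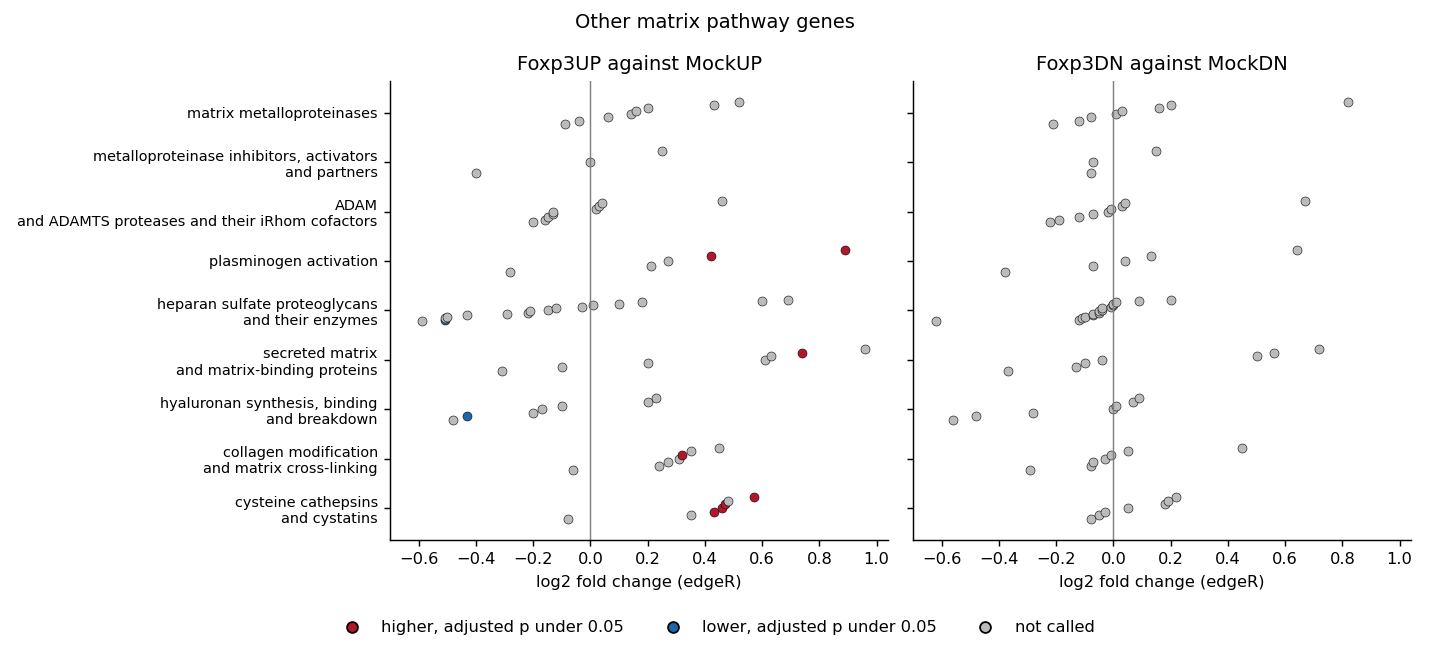
Log2 fold change from edgeR of the 69 tested pathway genes other than the members, by list, for Foxp3UP against MockUP on the left and Foxp3DN against MockDN on the right; colours mark an adjusted p under 0.05. The 8 higher and 2 lower genes are all on the left, and cathepsins and cystatins hold 4 of them.

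Mmp9 and Sdc4 lie on the same chromosome, so the genes around them were read as well. A gene start here is the lowest coordinate of the gene, whatever its strand. By that measure Sdc4 lies 517 kb from Mmp9, outside the window of 500 kb. The 5′ end of Sdc4, which is on the minus strand, lies 497 kb from the start of Mmp9. Of the 21 other tested genes that start within 500 kb of Mmp9, 1 rose in Foxp3UP against MockUP, which is 4.76%, against 12.1% of all tested genes. That gene was Ctsa (cathepsin A), a lysosomal carboxypeptidase, with 329 ± 30.5 CPM in Foxp3UP and 233 ± 21.0 CPM in MockUP (log2 difference 0.50 ± 0.09, edgeR adjusted p = 0.00151). The log2 differences of the 21 genes ran from -0.47 to 0.92 with a median of 0.21. The nearest tested genes on either side were Zfp335os at 0.32 ± 0.21 and Ncoa5 at -0.30 ± 0.15, and neither passed.

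**Figure D4:**
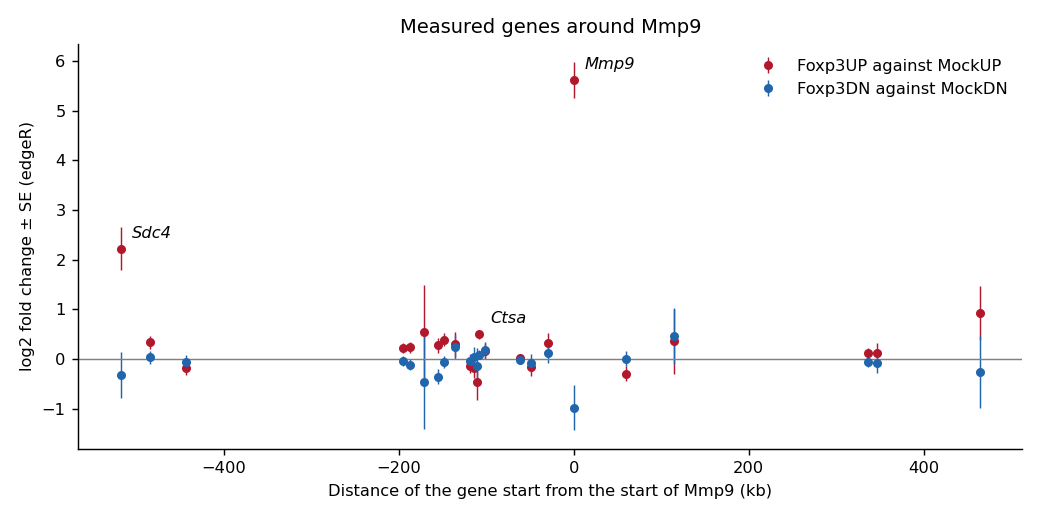
Log2 fold change ± SE from edgeR of the measured genes around Mmp9, against the distance of each gene start from the start of Mmp9 in kb, for both arms. Mmp9 at 5.61 and Sdc4 at 2.22 stand above the other 21 genes, which start within 500 kb of Mmp9 and reach at most 0.92 in the UP arm. A gene start is the lowest coordinate of the gene, by which Sdc4 lies 517 kb away, or 497 kb by its 5′ end.

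Cells other than T cells, neutrophils and macrophages among them, can also make Mmp9, and markers of such cells were summed in each group. The 10 neutrophil markers summed to 0.651 to 2.38 CPM in Foxp3UP, 1.14 to 1.66 CPM in MockUP, 1.34 to 3.70 CPM in Foxp3DN and 1.24 to 2.14 CPM in MockDN. Camp was at 0 in every library and 7 of the 10, with Ly6g and Cxcr2 among them, stayed below 1 CPM throughout. The 12 macrophage and monocyte markers summed to 57.4 to 84.7 CPM in Foxp3UP, 46.9 to 64.9 CPM in MockUP, 45.0 to 67.3 CPM in Foxp3DN and 44.4 to 56.4 CPM in MockDN. Of the 10 of them that were tested, Cd68 alone passed in the UP arm, with 22.7 CPM in Foxp3UP and 12.5 CPM in MockUP (edgeR adjusted p = 0.00207), while Adgre1 and Ms4a7 stayed below 1 CPM. Csf1r and Apoe had lower means in Foxp3UP (5.89 and 6.58 CPM) than in MockUP (7.25 and 8.67 CPM). The rest of the tested ones had higher means in Foxp3UP but did not pass.

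Fibroblast markers summed to 1.32 to 8.14 CPM in Foxp3UP, 0.285 to 2.81 CPM in MockUP, 0 to 2.30 CPM in Foxp3DN and 0.082 to 0.317 CPM in MockDN. The mean sum was highest in Foxp3UP (4.36 CPM, against 1.20 CPM in MockUP). Col3a1, the only one tested, averaged 1.97 CPM in Foxp3UP and 0.27 CPM in MockUP (edgeR adjusted p = 0.0692). Of the untested ones, Pdgfrb had a lower mean in Foxp3UP (0.0208 CPM) than in MockUP (0.0921 CPM), and the rest had higher means. Col1a2 and Dcn averaged 0.911 and 0.661 CPM in Foxp3UP. Col1a1, Lum, Pdgfra, Pdgfrb and Fap stayed below 1 CPM throughout. Melanocyte markers summed to 62.1 to 144 CPM in Foxp3UP, 63.2 to 94.5 CPM in MockUP, 36.5 to 81.4 CPM in Foxp3DN and 22.8 to 73.1 CPM in MockDN. B cell markers summed to 281 to 358 CPM in Foxp3UP, 129 to 206 CPM in MockUP, 167 to 205 CPM in Foxp3DN and 168 to 199 CPM in MockDN, of which Ighm was the gene that passed (312 CPM in Foxp3UP, 173 CPM in MockUP), and Ms4a1 and Pax5 were at 0. Dendritic cell markers summed to 102 to 131 CPM in Foxp3UP, 69.4 to 103 CPM in MockUP, 76.1 to 129.7 CPM in Foxp3DN and 80.7 to 103 CPM in MockDN, with H2-Ab1 higher in Foxp3UP (edgeR adjusted p = 0.0244) and Siglech at 0. Of the remaining lists, eosinophil and mast cell markers summed to 6.52 to 13.9 CPM in Foxp3UP and 5.51 to 15.4 CPM in MockUP, epithelial markers to 9.08 to 19.2 CPM in Foxp3UP and 4.56 to 11.5 CPM in MockUP, and endothelial markers to 53.9 to 63.1 CPM in Foxp3UP and 47.6 to 68.4 CPM in MockUP, with Cdh5 and Tek at 0. The pair of CD4 T cell markers summed to 8.65 to 13.1 CPM in Foxp3UP and 6.46 to 8.26 CPM in MockUP, and Cd4 stayed below 1 CPM. Their part in the values of the members was not tested.

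**Figure D5:**
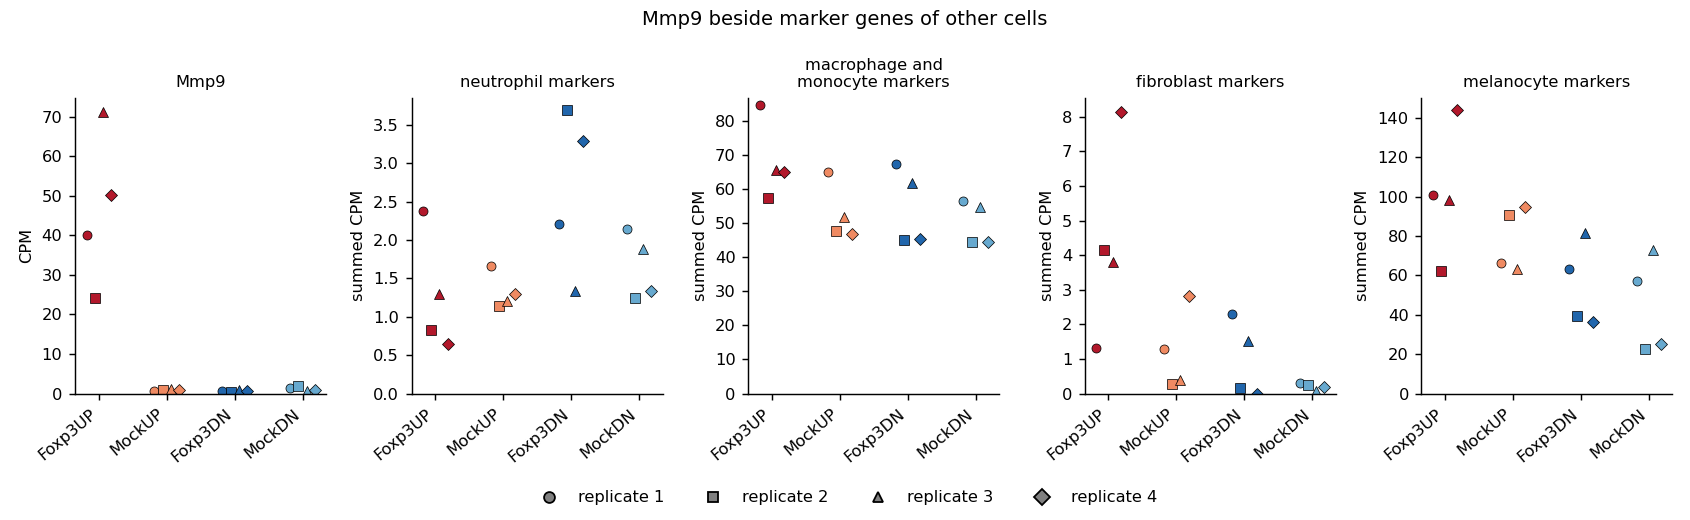
Mmp9 level (CPM) and the summed CPM of neutrophil, macrophage and monocyte, fibroblast and melanocyte markers in each library, on linear axes that start at 0. Mmp9 separates Foxp3UP from all other libraries. The neutrophil sum of Foxp3UP, 0.651 to 2.38 CPM, overlaps that of each other group. The mean sums of the macrophage and monocyte (68.2 CPM), fibroblast (4.36 CPM) and melanocyte (101 CPM) markers are highest in Foxp3UP. The macrophage and monocyte sum includes Cd68, at 22.7 CPM in Foxp3UP and 12.5 CPM in MockUP. The part of these cells in the Mmp9 level was not tested.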

How the data were processed

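The authors deposited unnormalised counts of reads in each gene, 1 column for each of 16 libraries, with mm10 coordinates and exonic lengths per the file headers. The tools named in the submitters' processing notes are STAR (version 2.6.1) and Subread (version 1.6.3), with the build mm10. The sources used here give no counting options, strand setting or annotation release, so reads of overlapping or antisense genes may be shared. Symbols came from GENCODE M21, in which 55480 of the 55573 identifiers were found, and promoters from RefSeq. Libraries were grouped by the sample titles.

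Counts were filtered with filterByExpr (minimum count 10), which kept 13711 genes, normalised by TMM and fitted in edgeR (version 4.0.16, R 4.3.3) by the robust quasi-likelihood method, with all 16 libraries and the 4 groups as the only terms. Calls were two-sided and required an adjusted p under 0.05 (Benjamini-Hochberg over all tested genes). The SE is the log2 difference divided by the square root of F. Correlations used log2 CPM with a prior count of 2. DESeq2 1.42.0 was an alternative, and the others are listed in the closing section. The steps were tested on simulated data. The fit allows for counting error, which is large for genes with few counts such as Mmp9 outside Foxp3UP. Timp1 was not in the fit.

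The members, the pathway and marker lists, the motifs and the tests were chosen with earlier results of these data known. Named genes were the members, Foxp3, up to 4 called genes of each pathway list with the smallest adjusted p, the 5 genes most like Mmp9 by each measure, and called neighbours. All other genes named with values (Thy1, Spp1, Mmp11, Mmp14, Mmp8, Plau, Plod3, Adamts14, Bsg, Zfp335os, Ncoa5, the marker genes, and the choice of genes among those most like Mmp9) were chosen after their values were seen. Within each arm, libraries with the same replicate number deviated together from their group means (r of 0.630, 0.213, 0.297 and 0.398 for numbers 1 to 4 of the UP arm, then 0.364, 0.582, 0.545 and 0.298 for the DN arm), all above 0.1, so the numbers were taken to pair the libraries. Each was above the highest r with a Mock library of another number in its arm. Those were 0.0444, 0.173, 0.220 and 0.364 for the UP arm, then 0.235, 0.172, 0.237 and 0.208 for the DN arm. The margin was thus small for numbers 2 and 4 of the UP arm. The main fit has no term for the pairing, and the replicate block is the fit that includes it. Where the pairing comes from is not stated.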

Additional observations from a re-analysis of the deposited data

Results flagged for a closer look

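Sdc4 in MockDN replicate 4 was at 0.955 CPM, while the other 3 MockDN libraries lay between 2.13 and 2.32 CPM. Adam8 in Foxp3DN replicate 1 was at 379 CPM, while the other 3 Foxp3DN libraries lay between 316 and 323 CPM. In both cases 1 library stood far from the others relative to the range of its group. Of 32 sets of 4 libraries examined (8 genes in 4 groups), these 2 did so, and chance gives about 1 in 20.

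For Mmp9, every Foxp3UP library was above the MockUP mean and every Foxp3DN library was below the MockDN mean, which put its log2 difference of effects, 6.59, among the values to look at again. The Foxp3DN and MockDN libraries overlapped, the difference in that arm did not pass (edgeR adjusted p = 1.00), pair 3 went the other way with a log2 difference of 0.44, and replicates 3 and 4 alone gave 0.02. The difference of effects was not tested, because the gene was chosen with the UP arm known.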

How the results depend on the processing

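The member differences in Foxp3UP against MockUP kept their sign under every alternative run, except Adam19. The call counts moved more. Genes called in Foxp3UP against MockUP were 1654, but 3475 with the replicate block, 658 with the 8 libraries of the arm alone, 31 with replicates 1 and 2 only and 3025 with replicates 3 and 4 only (each fitted to those libraries alone), and 1064 to 1978 with 1 library left out, falling to 1064 without Foxp3UP replicate 1 and 1097 without Foxp3UP replicate 3. The 10 other pathway genes called there became 21, 0, 0 and 16 in these same settings, and 3 to 11 with 1 library left out: 3 without Foxp3UP replicate 1 or 3, 5 without Foxp3UP replicate 4, and 6 without Foxp3DN replicate 4, MockDN replicate 1 or MockUP replicate 4. The difference of effects called 251 genes, against 1739 with the replicate block, 2 and 1688 in the replicate sets, 666 with DESeq2, and 99 (without MockDN replicate 1) to 518 (without MockUP replicate 1) with 1 library left out. Leaving out Foxp3DN replicate 3 or 4, Foxp3UP replicate 1, 3 or 4, MockDN replicate 2 or 4, or MockUP replicate 3 or 4 also lowered it by over 1.5 times, to between 110 and 151. Its 0 pathway genes became 13 with the replicate block, 10 with replicates 3 and 4 only, 2 with DESeq2 and 0 to 2 with 1 library left out, 2 without MockUP replicate 1 or 2. In Foxp3DN against MockDN, the 1 call became 0 with replicates 1 and 2 only and 3 with replicates 3 and 4 only.

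Some member values changed sign in Foxp3DN against MockDN, all of them near 0 in the main fit except Mmp9, which was at -0.98 there. With replicates 3 and 4 only, the log2 differences were 0.02 for Mmp9, -0.06 for Timp2, -0.10 for Ecm1, -0.17 for Adam19 and -0.03 for Plaur. Adam19 was also at -0.01 with library totals and 0.00 in the fit to its arm. With 1 library left out, the values ran from -0.09 to 0.23 for Timp2, -0.10 to 0.38 for Ecm1, -0.09 to 0.06 for Adam19 and -0.18 to 0.31 for Plaur. Sdc4 and Adam8 kept their sign, Sdc4 between -0.61 (without Foxp3DN replicate 1) and -0.05 (without Foxp3DN replicate 4) and Adam8 between -0.18 (without Foxp3DN replicate 1) and -0.08, and in replicates 1 and 2 alone and replicates 3 and 4 alone Sdc4 was at -0.08 and -0.81 and Adam8 at -0.04 and -0.18. The cause of these shifts was not tested. The replicate block called none of the members in the DN arm. For genes outside the members and pathway lists only the count of its calls was compared. Mmp9 did not pass the filter in the fit to the DN arm alone, and MockUP against MockDN has no fit with the block. RLE factors, no filter and a stricter filter (1 CPM in 4 libraries) left the call counts within 1.5 times. Mmp9 outside Foxp3UP, at 5 to 22 counts, Timp1, and Sdc4 in MockUP replicates 3 and 4, at 8 and 3 counts, are limited by depth.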

Other observations

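Ecm1 and Sdc4 each differed in the same direction in every group between replicates 1 and 2 and replicates 3 and 4. They were picked out for that after their values were seen. The sample numbers in the titles place these sets of replicates apart in every group. The other members did not keep the same direction. Mmp9, for example, went from 32.1 to 60.7 CPM in Foxp3UP and from 1.66 to 0.717 CPM in MockDN. Ecm1, the secreted matrix glycoprotein, was higher in replicates 3 and 4 than in replicates 1 and 2 of each group: 42.0 against 27.3 CPM in Foxp3UP, 10.2 against 7.47 CPM in MockUP, 11.6 against 9.43 CPM in Foxp3DN and 12.5 against 7.22 CPM in MockDN. Sdc4, the cell surface proteoglycan, went the other way in each group: 6.15 against 7.41 CPM in Foxp3UP, 0.566 against 2.28 CPM in MockUP, 0.873 against 2.16 CPM in Foxp3DN and 1.54 against 2.27 CPM in MockDN. With 2 libraries in each set of a group, these values were not tested.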
